A study of Loxodonta africana with 12 samples.

Results

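Caspases are the proteases that carry out apoptosis, and the apoptosome is the complex that switches on one of them when mitochondria release cytochrome c. The members were chosen by name as 8 genes of this machinery, namely CASP1, CASP2, CASP6, CASP8, CASP9, APAF1, CFLAR and XIAP. Of these, 7 had a row among the 16406 gene rows of the African elephant (Loxodonta africana) tables, and CASP1 was not analysed here. All 7 passed the filter on low counts in each of the 4 comparisons, with 251 to 20616 reads per member and library.

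RNA was sequenced from elephant blood in 12 libraries, with 3 in each of 4 groups: untreated at 5 h, irradiated at 5 h, untreated at 24 h and irradiated at 24 h. The irradiated groups received 2 Gy, and the untreated libraries of the same time served as their controls. The labels give no age, genotype or culture conditions. Since they leave unsaid if the replicates are different elephants, blood draws or cultures, every p-value here reflects spread among libraries that may be technical only. Depth was 31.1e6 to 38.1e6 counts per library at 5 h, and at 24 h it was 18.0e6 to 37.4e6. The pan-leukocyte gene PTPRC was detected in all 12 libraries, at 5250 to 5810 CPM (read counts scaled to library size, with TMM factors over the 12 libraries) in untreated libraries at 5 h and 3810 to 4450 CPM at 24 h. The summed markers of B cells, T cells, natural killer cells, monocytes, neutrophils and platelets each reached at least 47.6 CPM in every library, as in a mixture of blood cells. No marker with a row was at 0 throughout, which alone does not show that a cell type was present. Erythroid markers, of which 3 of 7 had a row and none of these was a globin, summed to 2.16 to 17.9 CPM over the libraries. Stromal and endothelial markers summed to 374 to 1030 CPM, most of it PECAM1 at 305 to 976 CPM. VWF reached 42.5 and PDGFRB 34.2 CPM, while COL1A1, COL1A2 and COL3A1 stayed at 1.9 CPM or below. In such bulk RNA, fewer cells of a type and less RNA per cell cannot be told apart.

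In the extrinsic route, death receptors at the cell surface gather CASP8 into a complex where it activates itself, and CFLAR (cFLIP), a relative of CASP8 without its protease activity, takes its place and holds the complex back. In the intrinsic route, cytochrome c binds APAF1, which assembles into the apoptosome and activates CASP9; XIAP blocks CASP9 and the executioner caspases. CASP2 is activated on a platform of its own that includes PIDD1, and CASP6 is an executioner that cuts nuclear lamins. CASP1 belongs to the inflammasome, which matures inflammatory cytokines. In blood, apoptosis limits the life of neutrophils and removes lymphocytes after DNA damage.

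The members spanned a wide range of levels, compared here in the authors' deposited FPKM values, which are per length. In untreated libraries at 5 h the inhibitor CFLAR was highest at 297.5 ± 63.2 FPKM (SD, n = 3), in the 96.8th percentile of all rows. CASP8 followed at 100.4 ± 4.84, XIAP at 46.3 ± 2.13, APAF1 at 36.0 ± 2.11, CASP6 at 19.5 ± 2.15, CASP2 at 13.3 ± 2.21 and CASP9 at 7.32 ± 0.282 FPKM, in the 49.5th percentile. No neighbours in that order overlapped in their libraries. The irradiated libraries at 5 h had the same order of means. At 24 h, the untreated order began the same way, with CFLAR at 200.7 ± 36.9, CASP8 at 81.4 ± 6.25, XIAP at 50.9 ± 0.642 and APAF1 at 45.6 ± 1.15 FPKM, but CASP6 at 42.9 ± 3.28 and CASP9 at 38.6 ± 1.93 FPKM then stood next to APAF1 and CASP2 was last at 13.9 ± 1.44. The libraries of APAF1 and CASP6 overlapped there, as did those of CASP6 and CASP9. In irradiated libraries at 24 h, XIAP at 41.7 ± 3.11 and APAF1 at 40.1 ± 1.64 FPKM overlapped.

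**Figure D1:**
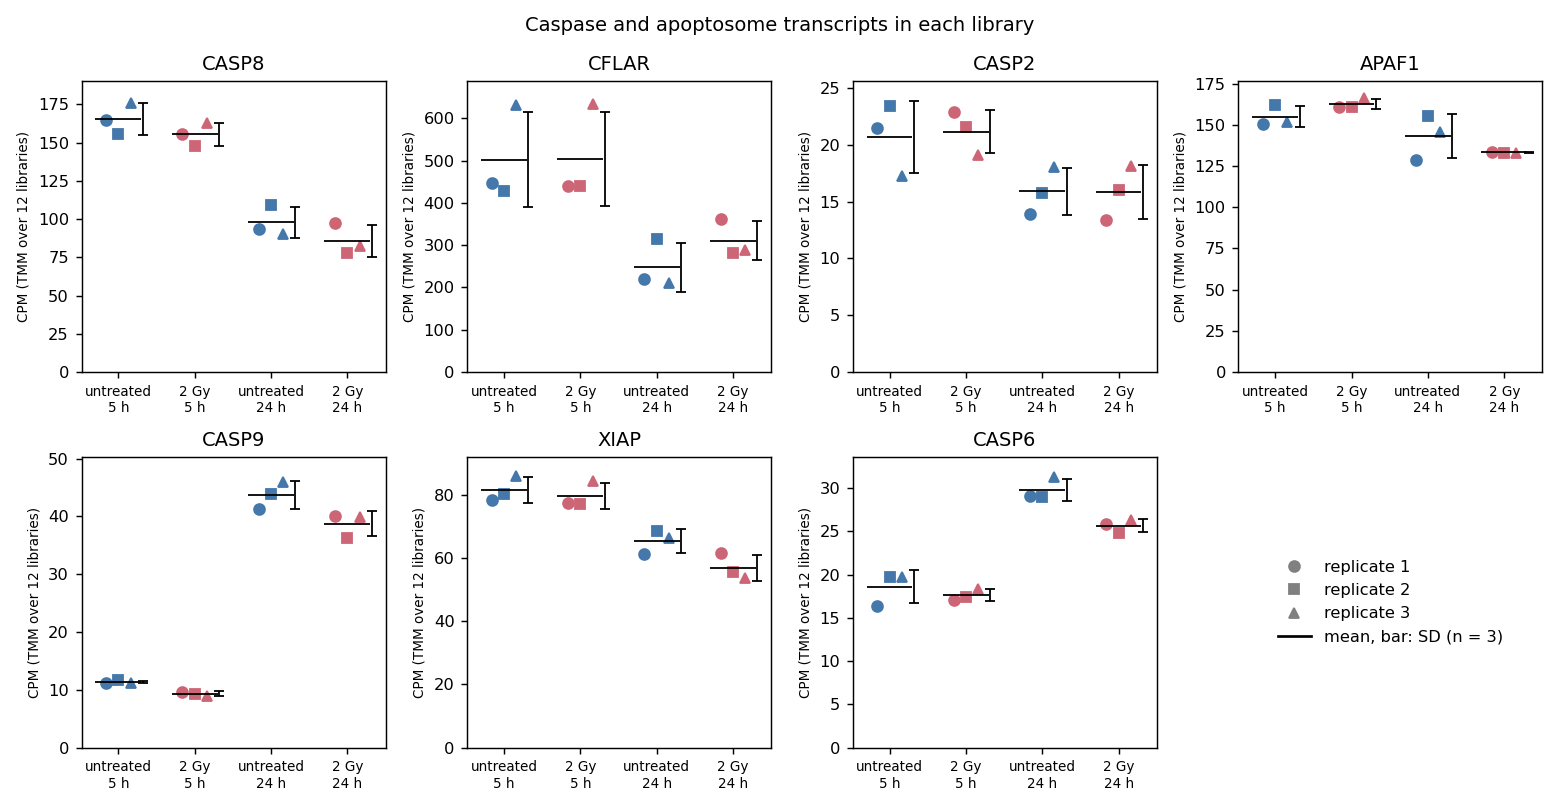
Level of each member in every library, in CPM scaled by TMM over the 12 libraries, for untreated (blue) and 2 Gy (red) libraries at 5 h and 24 h. Symbols are replicates, lines are means and bars are SD (n = 3). CASP9 separates the times most, from 11.4 CPM to 43.7 CPM in the untreated means, and CFLAR has replicate 3 high in both groups at 5 h.

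The first comparison asked what 2 Gy changed in this machinery by 5 h. None of the 7 members passed the test in edgeR without a block, 1 had an unadjusted p below 0.05 and DESeq2 called none either. Over all genes tested, 1.60% passed, 1.12% higher after irradiation. Of these 12969 genes, 1672 had an unadjusted p below 0.05, and DESeq2 called 444. The members' median log2 fold change was -0.05, against -0.00 for all genes, and their median absolute change was 0.06 against 0.12.

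In the extrinsic arm, CASP8 (ENSLAFG00000018282, scaffold 3, 25343289 to 25360024, minus strand) stood at 164.7, 155.7 and 176.2 CPM untreated and 155.5, 147.9 and 162.7 CPM irradiated at 5 h. The groups overlapped, and the log2 fold change was -0.10 ± 0.07 (SE, adjusted p = 0.63, 95% interval -0.27 to 0.07). CFLAR (ENSLAFG00000021855, scaffold 3, 25624010 to 25653453, minus strand) read 446, 429 and 631.5 CPM untreated against 439.5, 441 and 633 CPM irradiated. Replicate 3 was high in both groups and the other libraries lay close together, which put the log2 fold change at -0.00 ± 0.19 (adjusted p = 1, 95% interval -0.45 to 0.44). The libraries of like number moved together at 5 h over many genes, and with the replicate number as a block the standard error of CFLAR was 0.04 around a log2 fold change of -0.01.

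CASP2 (ENSLAFG00000005023, scaffold 172, 261820 to 276160, minus strand), the caspase of the PIDD1 platform, had 21.5, 23.4 and 17.2 CPM untreated and 22.9, 21.6 and 19.1 CPM irradiated. The groups overlapped, with a log2 fold change of 0.02 ± 0.13 (adjusted p = 0.97, 95% interval -0.28 to 0.32).

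Among the apoptosome genes, APAF1 (ENSLAFG00000014645, scaffold 2, 93711425 to 93792840, plus strand) lay at 150.4, 162 and 152 CPM untreated and at 161, 161 and 166 CPM irradiated, a log2 fold change of 0.06 ± 0.07 (adjusted p = 0.77, 95% interval -0.09 to 0.21). Its partner CASP9 (ENSLAFG00000015764, scaffold 26, 6739618 to 6763692, plus strand) had 11.2, 11.7 and 11.2 CPM in the untreated libraries and 9.72, 9.36 and 8.94 CPM in the irradiated ones. Every irradiated library was below every untreated one. CASP9 was the single member whose groups did not overlap, against 18.7% of all genes tested. Its log2 fold change was -0.30 ± 0.09, or 0.814-fold (95% interval -0.51 to -0.09), with an adjusted p of 0.22 in edgeR without a block. With the replicate block CASP9 was called lower, at -0.30 ± 0.08 (adjusted p = 0.018), and it was the single member called in that fit. The block fit called 20.5% of all genes, 10.6% higher and 9.92% lower. The authors' deposited table gives 0.31 for CASP9 as a log2 ratio of untreated over irradiated. CASP9 varied little between replicates, with a within-group SD of 0.0665 on the log2 scale over the 4 groups, at the 3.28th percentile of genes, where the median gene had 0.173 and CFLAR had 0.287. The summed CPM of 9 B cell markers ran from 294 to 357 untreated and from 186 to 244 irradiated at 5 h, with 1 of 9 called lower, and their part in the CASP9 values was not tested.

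The inhibitor XIAP (ENSLAFG00000013707, scaffold 32, 6676155 to 6692438, minus strand) gave 78.2, 80.4 and 86.0 CPM untreated and 77.4, 77.1 and 84.4 CPM irradiated at 5 h. The log2 fold change was -0.05 ± 0.07 (adjusted p = 0.84, 95% interval -0.21 to 0.12). The executioner CASP6 (ENSLAFG00000002727, scaffold 14, 18294597 to 18302324, minus strand) gave 16.4, 19.7 and 19.7 CPM untreated and 17.1, 17.5 and 18.4 CPM irradiated, all within the untreated range, at -0.09 ± 0.10 (adjusted p = 0.77, 95% interval -0.32 to 0.14).

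At 24 h after 2 Gy, again none of the 7 members passed in edgeR or in DESeq2, and 1, CASP6, had an unadjusted p below 0.05. Of all genes tested, 6.73% passed, 1.80% higher and 4.94% lower. Of these 14373 genes, 3096 had an unadjusted p below 0.05, and DESeq2 called 1715. The log2 fold changes of 6 members were negative and that of CFLAR was positive, with a median of -0.18 against 0.01 for all genes. CASP6 and CASP9 had groups that did not overlap, against 26.2% of all genes.

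CASP8 had 93.6, 109 and 90.4 CPM untreated and 97.7, 77.6 and 82.2 CPM irradiated at 24 h. The groups overlapped, at a log2 fold change of -0.20 ± 0.12 (adjusted p = 0.41, 95% interval -0.48 to 0.09). Its inhibitor CFLAR read 220, 314.5 and 209.5 CPM untreated and 363, 281 and 288 CPM irradiated. Untreated replicate 2 and irradiated replicate 1 were the high libraries of their groups for both genes. The log2 fold change of CFLAR was 0.32 ± 0.18 (adjusted p = 0.36, 95% interval -0.10 to 0.74), and the authors' deposited table gives -0.37 in its direction of untreated over irradiated.

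CASP2 overlapped between the groups at 24 h, with 13.9, 15.7 and 18.01 CPM untreated and 13.4, 16.03 and 18.1 CPM irradiated. Its log2 fold change was -0.02 ± 0.14 (adjusted p = 0.96, 95% interval -0.36 to 0.32). APAF1 had 129, 156 and 145 CPM untreated and 134, 133 and 133 CPM irradiated, so the irradiated libraries sat inside the untreated range and close together. Its log2 fold change was -0.11 ± 0.09 (adjusted p = 0.53, 95% interval -0.32 to 0.10). CASP9 had 41.2, 43.8 and 46.0 CPM untreated and 40.1, 36.2 and 39.9 CPM irradiated. All irradiated libraries were below the untreated ones by a small margin, with a log2 fold change of -0.18 ± 0.08 (adjusted p = 0.26, 95% interval -0.38 to 0.01).

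XIAP gave 61.2, 68.5 and 66.4 CPM untreated and 61.5, 55.6 and 53.6 CPM irradiated, overlapping by 1 library of each group, at -0.21 ± 0.09 (adjusted p = 0.25, 95% interval -0.43 to 0.01). CASP6 gave 29.1, 29.0 and 31.3 CPM untreated and 25.8, 24.8 and 26.3 CPM irradiated. These groups did not overlap, and the log2 fold change was -0.23 ± 0.08 (adjusted p = 0.16, 95% interval -0.42 to -0.04). At this time the summed B cell markers went from 398 to 488 CPM untreated to 58.9 to 78.3 CPM irradiated, with 9 of 9 called lower. NK and cytotoxic markers ran from 390 to 446 CPM untreated and from 149 to 220 CPM irradiated (4 of 6 lower), and T cell markers from 749 to 813 and from 481 to 614 CPM (2 of 9 lower). Monocyte markers ran from 2140 to 2670 CPM untreated and from 3030 to 3560 CPM irradiated (2 of 5 higher), and neutrophil markers from 347 to 607 and from 673 to 947 CPM (2 of 9 higher). Most of each neutrophil sum came from MMP9 (93.6 to 467 CPM) and FPR1 (201 to 435 CPM), while CSF3R and CXCR2 stayed at 2.55 CPM or below. The part of all these marker lists in the members' values at 24 h was not tested.

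Whether the irradiation effect differed between the times was tested by an interaction over all 12 libraries. None of the 7 members passed in edgeR, against 0.882% of all genes. None had an unadjusted p below 0.05, against 1512 of 15200 genes, and DESeq2 called none, against 362 genes. The difference in log2 effect, 24 h minus 5 h, was 0.32 ± 0.29 for CFLAR (95% interval -0.31 to 0.95) and 0.11 ± 0.12 for CASP9 (-0.15 to 0.37). It was -0.18 ± 0.12 for APAF1, -0.17 ± 0.12 for XIAP, -0.14 ± 0.13 for CASP6, -0.10 ± 0.15 for CASP8 and -0.04 ± 0.21 for CASP2.

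**Figure D2:**
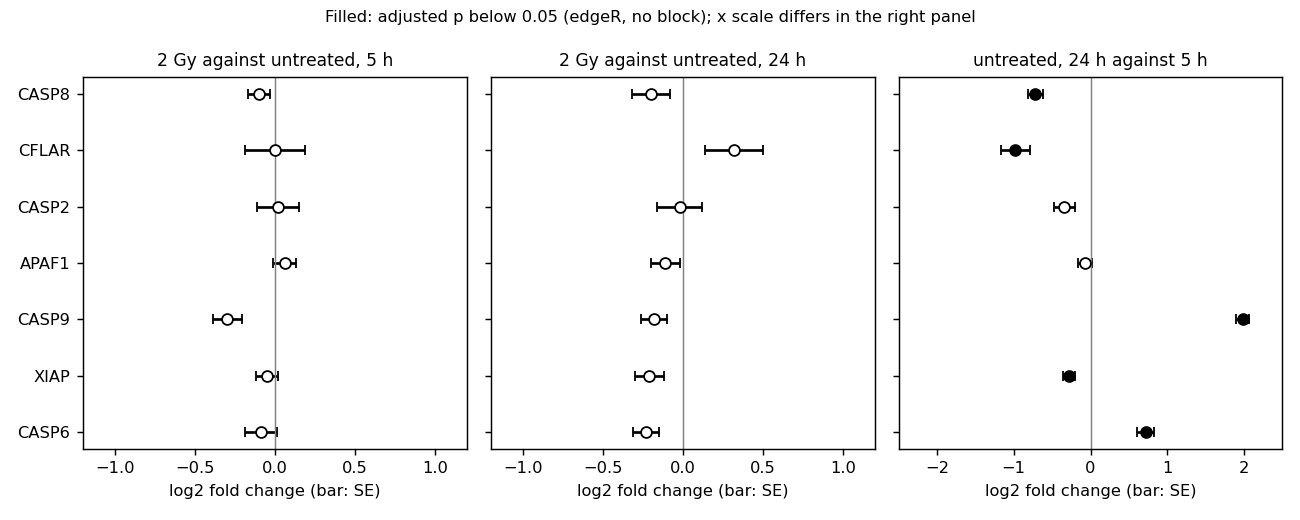
Log2 fold changes of the 7 members for 2 Gy against untreated at 5 h (left) and 24 h (middle) and for untreated libraries at 24 h against 5 h (right, wider axis). Bars are SE, and filled points have an adjusted p below 0.05 in edgeR without a block. No member is filled in the irradiation panels, while CASP9 and CASP6 lie to the right and CASP8, CFLAR and XIAP to the left in the time panel, where XIAP changes side with library totals.

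The last comparison was of time without irradiation, the background of the irradiation effects. In untreated libraries at 24 h against 5 h, 5 of 7 members were called, 2 higher and 3 lower, or 3 higher and 2 lower when scaled to library totals. The background was high, since 32.6% of all genes were called higher and 30.5% lower, and the groups did not overlap for 68.6% of genes and for 5 of the members. This comparison shares its untreated libraries at 24 h and at 5 h with the irradiation comparisons. It also rests on the scaling: TMM factors were 0.849 to 0.887 at 5 h and 1.09 to 1.29 at 24 h. With library totals, an alternative chosen after seeing the data, the median of all genes was 0.52 instead of 0.11, and 76.0% instead of 51.6% of the called genes were higher.

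CASP9 rose from 11.4 ± 0.244 to 43.7 ± 2.40 CPM (SD, n = 3), a log2 fold change of 1.98 ± 0.09 or 3.95-fold (adjusted p = 1.4e-06), and by 2.40 with library totals. CASP6 rose from 18.6 ± 1.91 to 29.8 ± 1.29 CPM, by 0.72 ± 0.11 on the log2 scale (adjusted p = 0.00051) and by 1.14 with library totals. CASP8 fell from 165.6 ± 10.3 to 97.8 ± 10.2 CPM, at -0.72 ± 0.10 (adjusted p = 3e-04) and -0.30 with library totals. CFLAR fell from 502 ± 112 to 248 ± 57.8 CPM, at -0.98 ± 0.19 (adjusted p = 0.0023) and -0.57 with library totals. These 4 calls held under both scalings.

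XIAP was lower at 24 h under TMM, from 81.5 ± 4.01 to 65.4 ± 3.75 CPM (-0.28 ± 0.08, adjusted p = 0.015), but its value was 0.14 (adjusted p = 0.14) with library totals. The FPKM values given above, which carry no TMM factor, are also slightly higher for XIAP at 24 h. APAF1 went from 155 ± 6.43 to 143 ± 13.5 CPM and was not called under TMM (-0.07 ± 0.09, adjusted p = 0.49), but it was called higher with library totals (0.34, adjusted p = 0.0052). CASP2 went from 20.7 ± 3.17 to 15.9 ± 2.05 CPM, with overlapping groups (-0.34 ± 0.14, adjusted p = 0.063), and was 0.07 (adjusted p = 0.66) with library totals. DESeq2 called CASP2 lower (-0.40, adjusted p = 0.033). It was also called without untreated replicate 3 at 5 h (-0.49, adjusted p = 0.015) and without untreated replicate 3 at 24 h (-0.47, adjusted p = 0.027). Neutrophil markers summed to 2340 to 2710 CPM in untreated libraries at 5 h and 347 to 607 CPM at 24 h, with 7 of 9 called lower. Most of each sum came from MMP9 (978 to 1480 CPM at 5 h, 93.6 to 270 at 24 h) and FPR1 (968 to 1200 and 201 to 306). CXCR2 was low throughout, at 7.83 to 8.93 CPM and 0.879 to 1.21 CPM. B cell markers had 4 of 9, T cell markers 6 of 9 and NK and cytotoxic markers 4 of 6 called higher with time, and the part of these shifts in the members' values was not tested.

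Ratios between partners within 1 library do not depend on scaling. The 3 ratios of counts per exon base given here were chosen after the values had been seen, and 9 comparisons of them were made with a two-sided exact permutation test, whose smallest possible p with 3 against 3 libraries is 0.1. At 5 h, APAF1 over CASP9 was 4.84, 5.03 and 4.89 without and 5.99, 6.22 and 6.73 with irradiation. The groups did not overlap (exact p = 0.1, 0.18 after Benjamini-Hochberg adjustment). At 24 h the ratio was 1.13, 1.28 and 1.14 untreated and 1.21, 1.33 and 1.21 irradiated (exact p = 0.5). XIAP over CASP9, the inhibitor against its target, also did not overlap at 5 h, with 6.14, 6.08 and 6.75 untreated and 7.03, 7.26 and 8.33 irradiated (exact p = 0.1, adjusted 0.18). At 24 h it was 1.32 ± 0.0545 untreated and 1.30 ± 0.0978 irradiated (SD, n = 3, exact p = 0.8). Both ratios share CASP9 as their denominator.

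CFLAR over CASP8, the inhibitor against its caspase, was 2.65, 2.69 and 3.50 untreated and 2.76, 2.91 and 3.80 irradiated at 5 h, with replicate 3 high in both groups (exact p = 0.5). Within same-numbered libraries at 5 h, each of the 3 ratios was higher in the irradiated library of 3 of 3 pairs (two-sided exact sign-flip test, p = 0.25 for each, the smallest that 3 pairs can give). At 24 h it was 2.30, 2.81 and 2.26 untreated and 3.63, 3.54 and 3.42 irradiated. Every irradiated library was above every untreated one, 1.44-fold in the means, with the smallest p the test can give (exact p = 0.1, adjusted 0.18). The libraries that were high for both genes, untreated replicate 2 and irradiated replicate 1, did not make the groups overlap in the ratio.

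**Figure D3:**
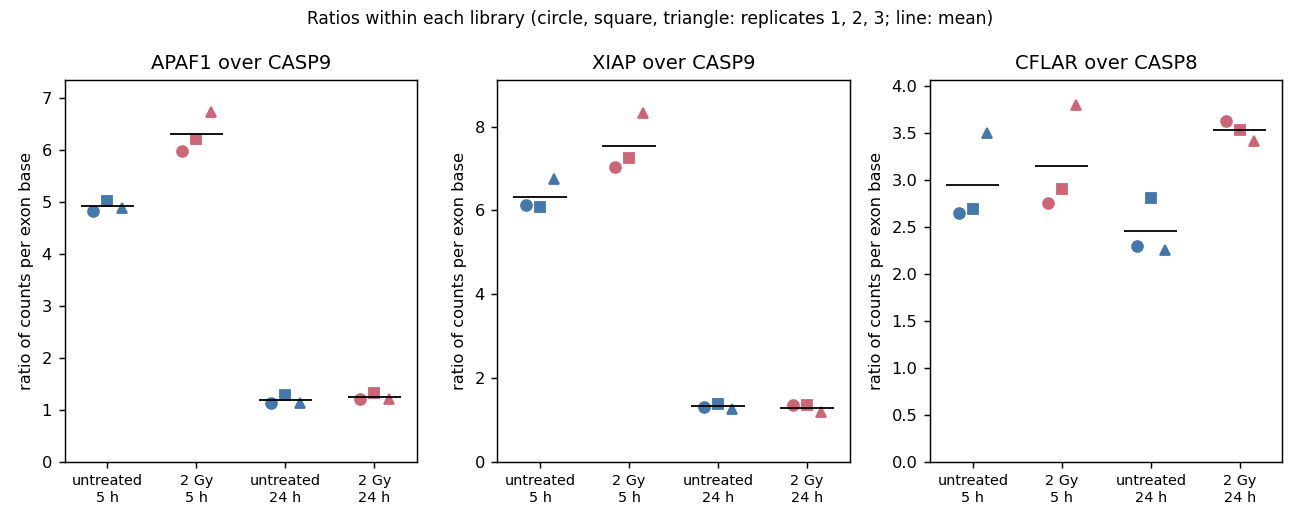
Ratio of counts per exon base of APAF1 over CASP9, XIAP over CASP9 and CFLAR over CASP8 in every library, untreated in blue and 2 Gy in red, with the mean as a line (n = 3). The ratios over CASP9 drop from 4.92 and 6.32 at 5 h to 1.19 and 1.32 at 24 h in the untreated means, and CFLAR over CASP8 at 24 h lies at 3.42 or above in irradiated and at 2.81 or below in untreated libraries.

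CASP8 and CFLAR lie on the same scaffold and strand, 263985 bases apart, with 4 rows between them, 3 without a symbol and 1 named SNORA42. That SNORA42 row (ENSLAFG00000024400) lies 284 bases from CFLAR on the same strand and is 1 of 5 rows with this symbol. Its count was between 10.95% and 14.8% of the CFLAR count in every library, from 621 to 2842 reads. Whether the reads of this row come from the CFLAR transcript was not tested. The row also had the profile over the 12 libraries most like that of CFLAR. Its root mean square difference was 0.0952 in centred log2 CPM, where the median over 10389 candidate genes was 0.581. GTPBP2 (0.0957) and BACH1 (0.102) followed. The libraries share depth, scaling and time, which shape all such likenesses. A row of a microRNA overlaps CFLAR on the opposite strand, with at most 22 reads in a library, and no other member overlaps another row.

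By the same measure, TSPAN14 (0.0956) and EBP (0.129) were among the 3 nearest genes to CASP9, against a median of 1.07. The 3 nearest to CASP6 were FAM214A (0.0692), ATAD2 (0.0704) and TDP2 (0.0707), against a median of 0.504. COPB1 (0.0422), RPL36A (0.0473) and HNRNPC (0.0533) were nearest to CASP8, against 0.51, and RPL38 (0.0397), UNC50 (0.0503) and CGGBP1 (0.0537) to XIAP, against 0.408.

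Other genes of the caspase pathways were listed by role, 47 symbols in all, of which 31 had a row and 30 were tested at each time. In edgeR without a block, 1 of 30 was called higher and 0 lower at 5 h, against 1.60% of all genes called, 1.12% higher. At an unadjusted p below 0.05 there were 5 higher and 4 lower, against 1672 of all 12969 genes in either direction. DESeq2 gave the same split of 1 and 0, against 240 higher and 204 lower of all genes. The list's median log2 fold change was 0.03. With the replicate block 9 were called higher and 5 lower, to be read against the 10.6% and 9.92% of all genes in that fit. At 24 h, 1 was higher and 2 were lower, against 1.80% and 4.94% of all genes, and the list's median was -0.01. DESeq2 called 2 higher and 3 lower at that time, against 606 and 1109 of 14373 genes. For the difference between the times, edgeR without a block called 0 of 31 in either direction, against 0.882% of all genes. At an unadjusted p below 0.05 there were 0 higher and 4 lower, against 1512 of 15200 genes in either direction. DESeq2 called 0 higher and 2 lower, against 80 and 282 of all genes. With the replicate block 0 were called higher and 1 lower, against 1.76% of all genes called in that fit. Its use is limited, since the replicate numbers at 24 h do not pair the libraries.

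The gene called higher at both times was IL18, a cytokine that CASP1 matures. It read 14.8, 14.6 and 21.0 CPM untreated and 39.0, 37.0 and 39.2 CPM irradiated at 5 h, with no overlap (log2 fold change 1.18 ± 0.14, adjusted p = 0.0059). At 24 h it read 23.1, 23.0 and 19.99 CPM untreated and 48.5, 40.7 and 32.9 CPM irradiated (0.88 ± 0.16, adjusted p = 0.021). The other 4 tested inflammasome genes, PYCARD, MEFV, GSDMD and CARD8, were not called at either time without the block. With the replicate block at 5 h, 3 of these 4 were called higher: PYCARD, the inflammasome adaptor, at 0.25 ± 0.07 (adjusted p = 0.017), MEFV at 0.25 ± 0.05 (adjusted p = 0.0029) and CARD8 at 0.37 ± 0.07 (adjusted p = 0.0018). At 24 h without the block PYCARD (0.29) and MEFV (0.36) were positive, but CARD8 was at -0.34 ± 0.15 (adjusted p = 0.24), with no overlap. The difference between the times for CARD8 was -0.71 ± 0.18 (adjusted p = 0.11). It was called lower with the block (-0.71 ± 0.12, adjusted p = 0.03), though the numbers at 24 h do not pair. The call of IL18 at 24 h was lost without untreated replicate 1 (adjusted p = 0.059), 2 (0.059) or 3 (0.076) and without irradiated replicate 2 (0.088), with log2 fold changes of 0.81 to 0.94. Of the monocyte markers, 2 of 5 were called higher at 24 h, as given above, and the part of that list in the IL18 values was not tested.

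PARP1, a DNA repair enzyme and caspase substrate, was called lower at 24 h. It had 149, 140.2 and 141 CPM untreated and 85.3, 92.1 and 87.4 CPM irradiated, with no overlap (-0.71 ± 0.09, adjusted p = 0.0059). At 5 h it was at -0.25 ± 0.07 (adjusted p = 0.21), called lower with the replicate block (adjusted p = 0.002), and its difference between the times was -0.47 ± 0.11 (adjusted p = 0.081). Called lower at 24 h were also 9 of 9 B cell, 4 of 6 NK and cytotoxic and 2 of 9 T cell markers, and the part of these lists in the PARP1 values was not tested.

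**Figure D4:**
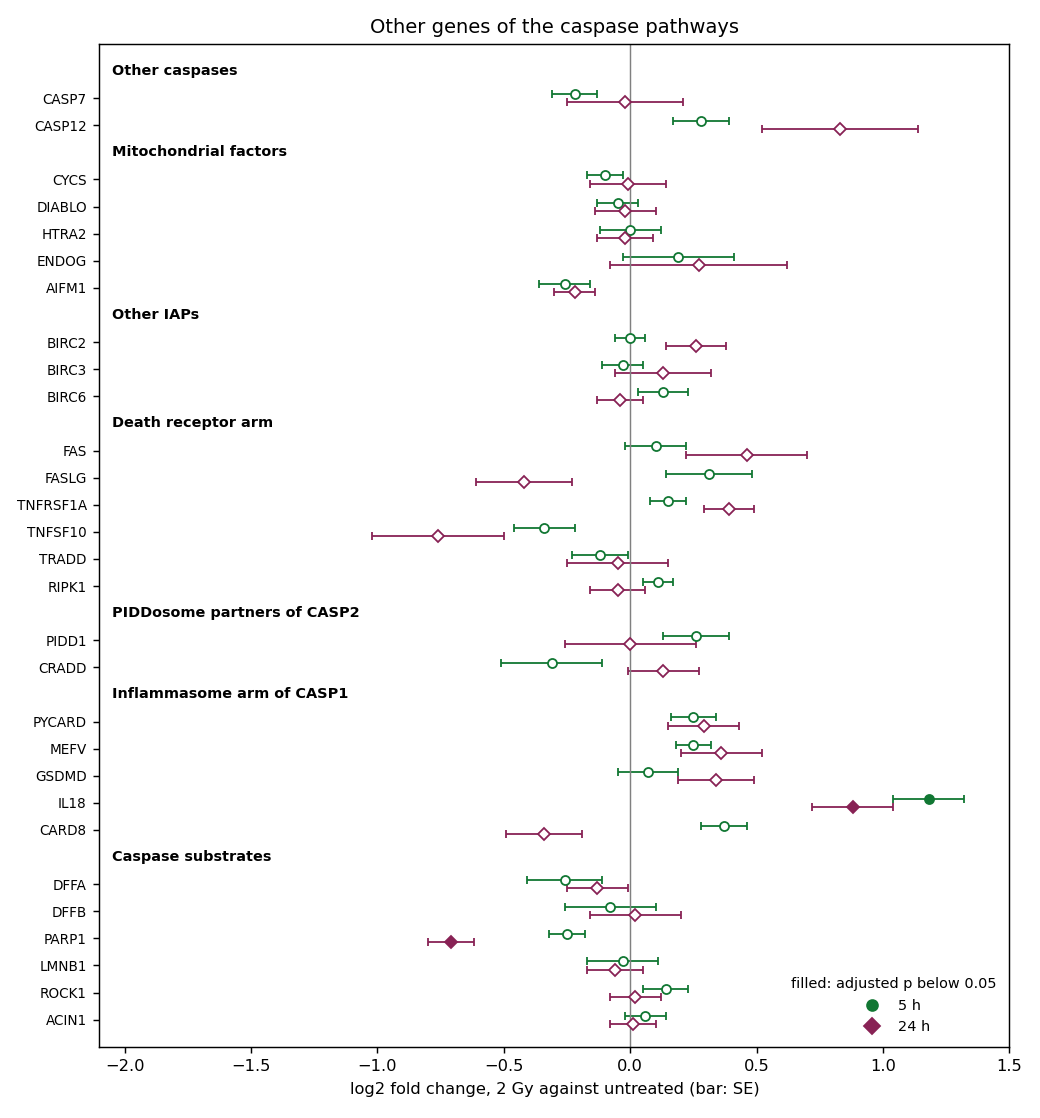
Log2 fold change (bar: SE) for 2 Gy against untreated of listed pathway genes, at 5 h (green circles) and 24 h (purple diamonds), grouped by role. Filled points have an adjusted p below 0.05 in edgeR without a block: IL18 at both times to the right and PARP1 at 24 h to the left.

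In the role groups with no call, the gene with the smallest p was named. Among the mitochondrial factors, 0 of 5 were called at either time without the block. AIFM1, a mitochondrial protein that moves to the nucleus in cell death, was at -0.26 ± 0.10 at 5 h (adjusted p = 0.32, and 0.0072 and called lower with the block) and at -0.22 ± 0.08 at 24 h (adjusted p = 0.17). Of 6 genes in the death receptor arm, 0 were called without the block. With it, 2 were called higher and 1 lower at 5 h, namely FASLG, the ligand of FAS (0.32 ± 0.11, adjusted p = 0.05, just under the threshold), TNFRSF1A and, lower, the death ligand TNFSF10 (-0.34 ± 0.07, adjusted p = 0.0019). FASLG went the other way at 24 h, at -0.42 ± 0.19 without the block (adjusted p = 0.25), with groups that did not overlap. TNFRSF1A, the TNF receptor, had 76.7, 96.8 and 95.9 CPM untreated and 119, 112 and 124 CPM irradiated at 24 h. These did not overlap (0.39 ± 0.10, adjusted p = 0.073), and DESeq2 called it higher (0.41, adjusted p = 0.009). At 5 h it was at 0.15 ± 0.07 (adjusted p = 0.4, and 0.015 with the block, called higher). Among the other relatives of XIAP, 0 of 3 tested were called without the block and BIRC6 was called higher with it at 5 h (0.13 ± 0.04, adjusted p = 0.022), with BIRC2, a ubiquitin ligase of TNF signalling, at 0.00 ± 0.06 at 5 h and 0.26 ± 0.12 at 24 h (adjusted p = 0.25). PIDD1, the scaffold for CASP2, was at 0.26 ± 0.13 at 5 h (adjusted p = 0.48) and 0.00 ± 0.26 at 24 h (adjusted p = 1).

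In untreated libraries over time, 12 of 31 pathway genes were called higher and 12 lower, against the 32.6% and 30.5% of all genes, and with library totals the split was 16 and 6. The named genes of that comparison ran from TNFRSF1A at -1.39 ± 0.10 (adjusted p = 1e-05) and BIRC2 at -0.81 ± 0.11 (adjusted p = 0.00027) to PIDD1 at 1.19 ± 0.17 (adjusted p = 0.00039). CYCS and CRADD were singled out after their values had been seen. CYCS, the cytochrome c that binds APAF1, was at -1.24 ± 0.12 (adjusted p = 4.2e-05), and CRADD, the adaptor between PIDD1 and CASP2, at 2.66 ± 0.18 (adjusted p = 7.9e-06).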

How the data were processed

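RNA from elephant blood was made into stranded libraries after removal of ribosomal RNA, per the labels' protocols. Per the file headers, the authors deposited raw read counts per gene, FPKM values and a log2 ratio of untreated over irradiated, in 1 table per time, on the L_africana_Jul_2009 assembly. The aligner, the counting program and the strand setting were not given in the sources used here. Another 12 columns of regularized log values were not used. File starts count from 0 (1449 rows of 1 exon have a length equal to end minus start), so 1 was added.

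Counts were tested with edgeR 4.0.16 in R 4.3.3: TMM scaling, filterByExpr, its quasi-likelihood F test, and adjustment by Benjamini-Hochberg over all genes tested at 0.05. The irradiation comparisons used the 6 libraries of their time, the comparison between times the 6 untreated libraries, and the interaction all 12. Standard errors came from the F statistic and 95% intervals from its degrees of freedom. DESeq2 1.42.0, RLE scaling, 2 other filters, the replicate block, a fit of all 12 libraries, library totals and leaving out each library were the alternatives. The code was tested on simulated data. Likeness used log2 CPM with a prior count of 2 over genes of at least 1 CPM. FPKM values, as the authors deposited them, were used for levels between genes.

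The members, lists and tests were chosen with earlier results of these data known. All 8 members were to be named, with every pathway gene called at either time, or the one of smallest p in a role group with none, and the 3 most alike genes of each called member. At 5 h, same-numbered untreated and irradiated libraries deviated together (r = 0.69, 0.72 and 0.85 over 8368 genes), so block values stand beside results there where they change a call; the pairing comes from the data, not the labels. No 2 replicates were alike within sampling noise (chi-square per degree of freedom at least 17.4). The precision of each value is limited by the counts of its gene and by 3 libraries per group. No sequences were used. Some genes that the naming rule selects are not reported here, though the counts include them. Pathway genes named only for a call with the block were chosen after their values were seen.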

Additional observations from a re-analysis of the deposited data

How the results depend on the processing

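Over 581 repeats of single-gene values under the alternatives, 532 kept their direction and side of the threshold, 12 gained and 8 lost a call, 27 uncalled values changed sign and 2 reversed: with library totals, APAF1 at 24 h against 5 h in untreated libraries was 0.34 and XIAP 0.14. Of the members, 0 were called for irradiation at 5 h except for 1 with the replicate block, and 0 at 24 h and for the interaction under every alternative run. Over time 5 members were called, 5 to 6 when leaving out 1 library. RLE scaling, DESeq2 and the fit of all 12 libraries each called 2 members higher and 4 lower over time. Counts over all genes at 5 h were 207, with 444 in DESeq2 and 2655 with the replicate block, and 86 to 191 without 1 library, falling by over 1.5-fold for each library but irradiated replicate 3. The share called higher there was 70.0%, but 54.1% in DESeq2 and 51.6% with the block. At 24 h they were 968, with 1715 in DESeq2, 1670 with all 12 libraries in 1 fit and 293 to 1061 without 1 library, falling by over 1.5-fold for each library but irradiated replicate 1. The interaction gave 134, with 362 in DESeq2, 268 with the replicate block and 76 to 168 without 1 library, falling by over 1.5-fold without untreated replicate 1 or 3 of either time or irradiated replicate 2 or 3 at 5 h, and time gave 8490, with 7219 to 8387. Pathway genes called at 5 h were 1, 14 with the replicate block and 1 to 1 without 1 library. At 24 h they were 3, with 5 in DESeq2, 5 with all 12 libraries in 1 fit and 1 to 3 without 1 library. The cause of these shifts was not tested. At 24 h and over time the replicate numbers do not pair the libraries (same-number r = -0.18, -0.61 and 0.87, and -0.00071, -0.078 and -0.16). At 24 h not every library correlated best with its own number: untreated replicate 2 did so with irradiated replicate 1 (r = 0.85) and untreated replicate 1 with irradiated replicate 2 (r = 0.55), a hint from the data that no fit here uses. The replicate block gave 707 calls at 24 h and 8101 over time, with 0 and 5 members. Of the members' calls it changed 1, that of CASP9 at 5 h. The pathway calls it changed at 5 h and for the difference between the times are counted above. The lowest counts of a member were those of CASP9, with 251 to 372 reads per library at 5 h.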
